A study of Mus musculus with 6 samples.

Results

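The miR-17-92 cluster was followed through its mature arms, the short RNAs cut from the 5′ (5p) and 3′ (3p) sides of the hairpins of 1 primary transcript. Its 10 arms were taken by name from the 1978 known mature miRNAs counted in the series, with earlier results of these data known. All 10 were listed and all 10 passed the filter on low counts that kept 619 known miRNAs. The 2 remaining arms of the hairpins, miR-19a-5p and miR-19b-1-5p, are not members, and miR-19a-5p did not pass that filter. The cells were c-kit+ cardiac progenitor cells, which carry the receptor tyrosine kinase c-kit, sorted magnetically from digested hearts of wild-type male C57BL/6 mice aged 4 to 6 weeks. The 3 control libraries carry a time of 0 hours, and the 3 hypoxia libraries, titled Model, are from cells kept under hypoxia for 12 hours. The treatment field names hypoxia for both groups, so titles and times defined the groups. No label states the oxygen level. Time in culture and hypoxia cannot be told apart if the control cells were not cultured for as long. The extraction protocol speaks of exosomal RNA and the design text of cellular RNA, and this was not settled. The titles number the 3 libraries of each group as biological replicates, without naming the animals or cultures behind them, so each p-value is set against the spread among these libraries.

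Libraries held 12285970 to 16975987 known miRNA counts. They are named by group and by the letter A, B or C of their column, because the letters match no replicate number in the titles. Columns starting with 0 were read as the controls at 0 hours and those starting with 1 as hypoxia, and every direction rests on that reading. Levels are CPM, counts scaled to one common library total, after TMM adjustment of library sizes. Kit mRNA is not measured in such libraries, so the cell type was set against miRNA markers of other cells. The 2 endothelial miR-126a arms summed to 227224 to 249670 CPM in control and 200685 to 238090 CPM in hypoxia libraries. The 5 fibroblast and smooth muscle markers summed to 26075 to 57427 CPM and 26575 to 50352 CPM. The 6 cardiomyocyte markers summed to 77.2 to 172 CPM and 104 to 176 CPM, most of it miR-1a-3p (mean 109 CPM), with miR-208a-3p and miR-208b-3p below 1 CPM on average. All 4 of them that passed the filter had log2 fold changes above 0 (median 0.54), beside 317 of all 619 tested miRNAs (51.2%). None of the 4 was called by edgeR with or without the block. miR-133b-3p had 9 to 55 counts per library, or 0.729, 1.77 and 0.828 CPM in control A, B and C and 2.28, 3.37 and 1.81 CPM in hypoxia. Its groups did not overlap (log2 fold change 1.17, edgeR adjusted p = 0.66, and 0.115 with the block). Groups without overlap and with higher values in hypoxia were found for 46 of all 619 tested miRNAs (7.43%). miR-133a-3p was higher in hypoxia within 3 of 3 letters (log2 fold change 0.56, edgeR adjusted p = 0.88, and 0.098 with the block). So was miR-499-5p, with 12 to 68 counts per library (log2 fold change 0.52, edgeR adjusted p = 0.97, and 0.36 with the block). The 8 blood cell markers summed to 653 to 944 CPM and 550 to 1055 CPM, of which miR-155-5p alone gave 598 to 894 CPM and 493 to 1013 CPM, with miR-223-3p and miR-144-3p below 1 CPM on average. Log2 fold changes lay above 0 for 1 of 2 endothelial and 3 of 5 fibroblast and smooth muscle markers. The same held for 3 of 6 tested blood cell markers. Of all these, miR-199a-3p (0.38), miR-214-3p (0.14) and miR-126a-5p (0.28) were also higher in hypoxia within 3 of 3 letters. With the block their edgeR adjusted p was 0.060, 0.70 and 0.12. The blood cell marker miR-486a-5p was lower in hypoxia within 3 of 3 letters (log2 fold change -0.25, edgeR adjusted p = 0.27 with the block). The part of these cell types in the values below was not tested.

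The cluster is known as a growth-promoting polycistron that MYC and E2F factors activate and that is needed for normal heart and lung development. Each mature arm, loaded into an Argonaute protein, pairs with target mRNAs mainly through its seed, bases 2 to 8, so arms with one seed share most predicted targets. The miR-17 and miR-20a guides are known repressors of cell cycle inhibitors, miR-18a and miR-19 of the anti-angiogenic proteins CTGF and thrombospondin-1, and miR-92a of integrin alpha 5 in endothelial cells. HIF-1 alpha, the oxygen-regulated transcription factor, is a known target of miR-17 and miR-20a.

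The 6 hairpins lie on the plus strand of mouse chromosome 14 (GRCm38), from 115043671 to 115044506, a stretch of 836 bases. All 6 are inside exon 2 (115043271 to 115046727) of the long noncoding RNA gene Mir17hg in the GENCODE M21 annotation. From the start of Mir17 the later hairpins begin 180 bases (Mir18), 329 bases (Mir19a), 486 bases (Mir20a), 634 bases (Mir19b-1) and 756 bases (Mir92-1) downstream. All 10 arms matched RefSeq mature sequences (GRCm38.p6). They are printed 5′ to 3′ in transcript order with the seed in capitals, since the seeds sort the arms into the groups described below.
mmu-miR-17-5p: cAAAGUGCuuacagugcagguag
mmu-miR-17-3p: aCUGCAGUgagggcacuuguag
mmu-miR-18a-5p: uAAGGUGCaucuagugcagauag
mmu-miR-18a-3p: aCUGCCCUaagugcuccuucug
mmu-miR-19a-3p: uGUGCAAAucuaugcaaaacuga
mmu-miR-20a-5p: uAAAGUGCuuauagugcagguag
mmu-miR-20a-3p: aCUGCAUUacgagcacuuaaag
mmu-miR-19b-3p: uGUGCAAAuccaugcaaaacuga
mmu-miR-92a-1-5p: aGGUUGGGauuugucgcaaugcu
mmu-miR-92a-3p: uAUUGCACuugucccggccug

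The 10 arms carry 8 different seeds. Only miR-17-5p with miR-20a-5p, and miR-19a-3p with miR-19b-3p, share a seed within the cluster. Counted from 1 at the 5′ end of the first-named arm, miR-17-5p and miR-20a-5p differ by C1U and C12U over 23 bases, and miR-19a-3p and miR-19b-3p by U11C. The 6 more abundant arms start with U or C, and the 4 less abundant ones all start with A. No other known miRNA had counts within 1% of an arm's in every library.

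To show which side of each precursor gave the more abundant arm, 4 hairpins for which both arms are members are printed with that arm in capitals.
Mir17: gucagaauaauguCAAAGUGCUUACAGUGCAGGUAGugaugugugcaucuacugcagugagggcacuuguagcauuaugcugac
Mir18: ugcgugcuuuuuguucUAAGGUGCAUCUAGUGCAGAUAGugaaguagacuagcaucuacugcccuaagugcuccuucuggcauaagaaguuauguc
Mir20a: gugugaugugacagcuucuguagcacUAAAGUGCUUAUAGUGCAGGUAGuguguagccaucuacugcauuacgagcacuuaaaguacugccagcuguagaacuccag
Mir92-1: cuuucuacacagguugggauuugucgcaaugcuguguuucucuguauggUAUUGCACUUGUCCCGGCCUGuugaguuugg

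Mir17, Mir18 and Mir20a gave their more abundant arm from the 5′ side and Mir92-1 from the 3′ side. Mir19a and Mir19b-1 also gave it from the 3′ side. Their 5′ arms, miR-19a-5p and miR-19b-1-5p, are not members, and had 0 to 5 and 15 to 40 counts per library.

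Together the 10 arms took a similar share of the libraries with and without hypoxia. In control libraries A, B and C they held 0.306%, 0.278% and 0.363% of known miRNA counts, against 0.352%, 0.272% and 0.379% for hypoxia A, B and C. The groups overlapped, and the lowest library of each was B. Counting error was small beside this spread, with an exact Clopper-Pearson 95% interval of 0.376% to 0.382% in hypoxia C (it covers counting error only). The control mean was 0.316% ± 0.0436 and the hypoxia mean 0.334% ± 0.0554 (SD, n = 3 per group). The difference of 0.0189 percentage points lay within the spread between libraries (p = 0.8 by a two-sided exact permutation test that can reach 0.1 at the lowest). Its sign turned without control B or hypoxia C (differences of -5.7e-05 and -0.0034 percentage points). As a share of TMM-adjusted library sizes the difference was 0.0037 percentage points. By that share the lowest control library was A (0.304%, against 0.310% for control B), and the lowest hypoxia library was B (0.284%). In these bulk libraries a smaller number of cells of a type and less RNA per cell cannot be told apart.

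Levels of the 10 member arms spanned more than 100-fold in every library. The span between the highest and the lowest member ran from 146-fold in hypoxia C to 245-fold in control B. It leaves out miR-19a-5p and miR-19b-1-5p of the same transcript, which were lower still, at 0 to 5 and 15 to 40 counts per library. All mature arms are 21 to 23 bases long, so counts were compared without a length correction, although ligation and amplification are known to favour some small RNAs over others. The 6 more abundant arms held 97.4% to 98.3% of the cluster's counts in each library. Among these 6 alone the span was 8.77-fold to 14.4-fold. The order of mean levels was miR-92a-3p, miR-20a-5p, miR-17-5p, miR-19b-3p, miR-19a-3p, miR-18a-5p, miR-17-3p, miR-92a-1-5p, miR-18a-3p and miR-20a-3p. It did not follow the order of the hairpins along the transcript. The order was set in these same libraries, so the mean log2 ratio of neighbours is above 0 by construction. In 6 of 9 steps the ratio was above 0 in every library and its mean exceeded its SD. The other 3 did not: miR-92a-3p was above miR-20a-5p in 5 of 6 libraries (mean log2 ratio 0.25 ± 0.28), miR-19a-3p above miR-18a-5p in 4 of 6 (0.30 ± 0.47), and miR-18a-3p above miR-20a-3p in 5 of 6 (0.35 ± 0.39, SD, n = 6 libraries).

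**Figure D1:**
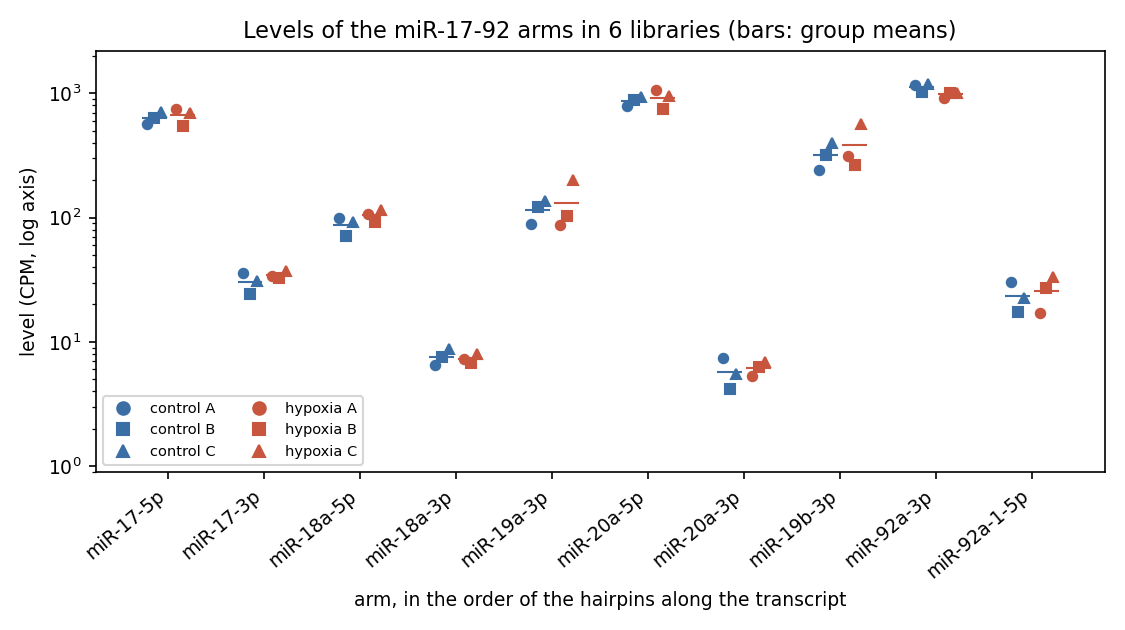
Levels of the 10 arms in CPM on a log axis, in hairpin order along the transcript, with 1 point per library (circle A, square B, triangle C; blue control, red hypoxia) and short bars for group means. miR-92a-3p and miR-20a-5p lie between 742 and 1188 CPM and miR-18a-3p and miR-20a-3p below 10 CPM, while the groups of 1 arm lie close together.

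No arm of the cluster was called between hypoxia and control. Without a block, edgeR's quasi-likelihood test called 0 of the 10 arms, against 0 of all 619 tested miRNAs (0%) at an adjusted p under 0.05. At an unadjusted p under 0.05 it had 0 of the 10 arms and 42 of 619 miRNAs (6.79%). With the column letter as a block, edgeR called 14 of 619 miRNAs (2.26%), none of them an arm of the cluster. At an unadjusted p under 0.05 that fit had 132 of 619 (21.3%), again with 0 arms. Over the 10 arms 8 log2 fold changes (hypoxia over control) lay above 0, with a median of 0.13, beside 317 of 619 miRNAs (51.2%) and a median of 0.01 over all those tested. Single libraries moved this summary: without hypoxia C 5 of the 10 lay above 0 with a median of -0.044, and without control A or control B 6 did, with medians of 0.041 and 0.031. Without hypoxia A 6 lay above 0, with a median of 0.20. These counts describe arms of 1 transcript, which are not independent. DESeq2 also called 0 arms, beside 1 of 1322 miRNAs, and limma-voom 0 arms, beside 0 of 619.

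The guides with the miR-17 seed stayed near their control levels. miR-17-5p stood at 567, 629 and 703 CPM in control A, B and C and at 748, 548 and 698 CPM in hypoxia A, B and C. Hypoxia libraries gave both the highest and the lowest of the 6 values. The log2 fold change was 0.07 (SE 0.19, 95% interval -0.36 to 0.50, edgeR adjusted p = 0.99). miR-20a-5p stood at 788, 882 and 926 CPM in control and at 1057, 742 and 951 CPM in hypoxia A, B and C. Again A was the highest and B the lowest hypoxia library, on either side of the control range. Its log2 fold change was 0.08 (SE 0.18, 95% interval -0.34 to 0.51, edgeR adjusted p = 0.99). For both arms the sign turned without control A or hypoxia A.

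miR-20a-5p held a nearly fixed ratio to miR-17-5p, from which it is separated on the transcript by 2 other hairpins. Its counts were 132% to 141% of those of miR-17-5p in every library, a log2 ratio of 0.46 ± 0.04 (SD, n = 6). Over the 6 libraries their log2 CPM gave a Pearson's r of 0.98, a description only, since both values share a library and its scaling. Across all 45 pairs of arms r ran from -0.47 (miR-20a-5p with miR-92a-1-5p) to that value, with a median of 0.23. High values were not limited to arms with one seed. miR-17-3p, which shares its seed with no other arm of the cluster, gave 0.95 with miR-18a-5p and 0.92 with miR-20a-3p. Steady ratios were not limited to miR-17-5p and miR-20a-5p either. miR-18a-5p over miR-17-3p had a log2 ratio of 1.57 ± 0.07 (SD, n = 6). The counts of miR-93-5p, which is not an arm of the cluster, were 91.5% to 105% of those of miR-17-5p.

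The miR-19 guides had the largest standard errors of the 6 abundant arms, and 1 library stood above the rest. miR-19a-3p stood at 89.3, 121 and 135 CPM in control A, B and C and at 87.1, 103 and 201 CPM in hypoxia A, B and C. miR-19b-3p stood at 242, 319 and 395 CPM in control and at 314, 266 and 565 CPM in hypoxia. Hypoxia C was the highest of the 6 libraries for both, and the other 2 hypoxia libraries lay within or just below the control range. Log2 fold changes were 0.18 (SE 0.33, 95% interval -0.59 to 0.94) for miR-19a-3p and 0.26 (SE 0.31, 95% interval -0.46 to 0.98) for miR-19b-3p, both with an edgeR adjusted p of 0.99. Without hypoxia C they were -0.30 and -0.16. The counts of miR-19b-3p were 259% to 361% of those of miR-19a-3p, and the r of their log2 CPM over the 6 libraries was 0.92.

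miR-18a-5p, the lowest of the 3 guides cut from a 5′ side, stood at 99.7, 71.2 and 92.9 CPM in control A, B and C and at 107, 92.6 and 115 CPM in hypoxia A, B and C. The groups overlapped, although each hypoxia library lay above the control library of the same letter (log2 differences of 0.10, 0.38 and 0.31). The log2 fold change was 0.25 (SE 0.21, 95% interval -0.23 to 0.73, edgeR adjusted p = 0.92). With the letter block it was 0.26 (SE 0.12, 95% interval -0.02 to 0.54, edgeR adjusted p = 0.26).

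After TMM scaling, miR-92a-3p was the 1 arm whose groups did not overlap, with lower levels in hypoxia, and it did not pass the test. It stood at 1176, 1024 and 1188 CPM in control A, B and C and at 922, 1011 and 1008 CPM in hypoxia A, B and C. The highest hypoxia library lay just under the lowest control library, both of letter B. This separation in CPM depended on the scaling. As a plain share of known miRNA counts, control B (13330 of 14526041) lay below every hypoxia library, so the groups overlapped. Scaling by library size only gave a log2 fold change of -0.15. The log2 fold change was -0.20 (SE 0.15, 95% interval -0.56 to 0.15, edgeR adjusted p = 0.92), and with the letter block -0.20 (SE 0.11, 95% interval -0.45 to 0.05, edgeR adjusted p = 0.35). Groups without overlap and with lower values in hypoxia were found for 1 of the 10 arms and for 34 of all 619 tested miRNAs (5.49%). With higher values in hypoxia they were found for 0 of the 10 arms and for 46 of 619 miRNAs (7.43%).

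The 4 less abundant arms, which are mostly degraded when the other strand is loaded, gave 54 to 561 counts per library. miR-17-3p stood at 36.0, 24.1 and 31.0 CPM in control A, B and C and at 33.7, 32.6 and 37.2 CPM in hypoxia. miR-92a-1-5p stood at 30.2, 17.3 and 22.3 CPM in control and at 17.1, 27.0 and 33.5 CPM in hypoxia. Its log2 difference was -0.81 within letter A but 0.64 and 0.58 within B and C, the widest range over letters of any arm. miR-18a-3p ranged from 6.48 to 8.72 CPM in control and from 6.75 to 7.98 CPM in hypoxia, and miR-20a-3p from 4.15 to 7.45 CPM and from 5.35 to 6.89 CPM. All 4 pairs of groups overlapped. Log2 fold changes were 0.18 (SE 0.21) for miR-17-3p, 0.15 (SE 0.30) for miR-92a-1-5p, -0.05 (SE 0.22) for miR-18a-3p and 0.12 (SE 0.28) for miR-20a-3p, each with an edgeR adjusted p of 0.99.

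**Figure D2:**
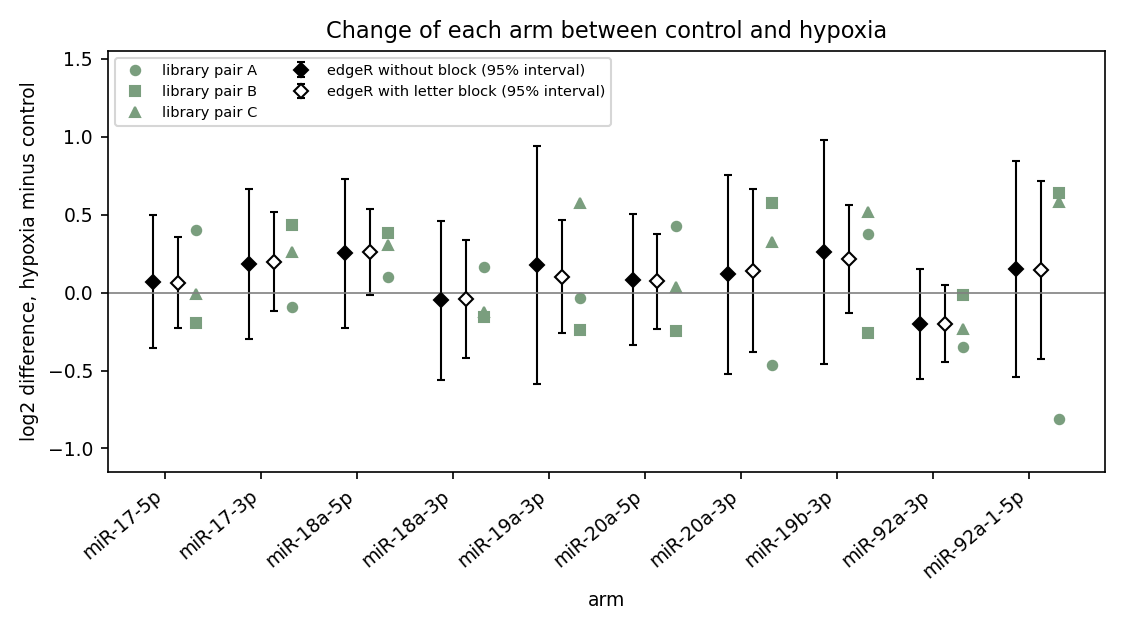
Log2 difference of hypoxia minus control for each arm, from edgeR without a block (filled diamonds) and with the letter block (open diamonds), with 95% intervals, and the difference within each letter (green; circle A, square B, triangle C). All 20 intervals include 0, and the letters lie on both sides of 0 for 8 of the 10 arms, the exceptions being miR-18a-5p (above) and miR-92a-3p (below).

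The balance between the 2 arms of a hairpin, which does not depend on library scaling, was also compared. Mir19a and Mir19b-1, whose 5p arms are not members, were left out. Among the 4 printed hairpins Mir20a had the most uneven pair. There miR-20a-5p was 105, 211 and 168 times miR-20a-3p in control A, B and C and 196, 118 and 137 times in hypoxia A, B and C. For Mir17 the 5p arm was 15.7, 26.0 and 22.6 times the 3p arm in control and 22.2, 16.8 and 18.7 times in hypoxia. For Mir18 the 5p arm was 15.3, 9.41 and 10.6 times the 3p arm in control and 14.6, 13.7 and 14.3 times in hypoxia. For Mir92-1 the 3p arm was 38.9, 59.1 and 53.1 times the 5p arm in control and 53.8, 37.4 and 30.1 times in hypoxia. In all 4 hairpins the groups overlapped.

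On the log2 scale of 3p over 5p counts (pseudocount 0.5), hypoxia minus control was 0.14 for miR-17, -0.30 for miR-18a, 0.08 for miR-20a and -0.34 for miR-92a-1. Exact two-sided permutation tests over the 6 libraries gave p = 0.7, 0.4, 0.9 and 0.3, where the smallest possible is 0.1. For miR-17 and miR-20a the sign turned without control B (-0.02 and -0.15), and for miR-20a also without hypoxia B (-0.08). The other 2 kept their sign but not their size. For miR-18a the difference was -0.51 without control A and -0.16 without control B. For miR-92a-1 it was -0.51 without control A, -0.21 without control B, -0.56 without hypoxia A and -0.14 without hypoxia C.

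**Figure D3:**
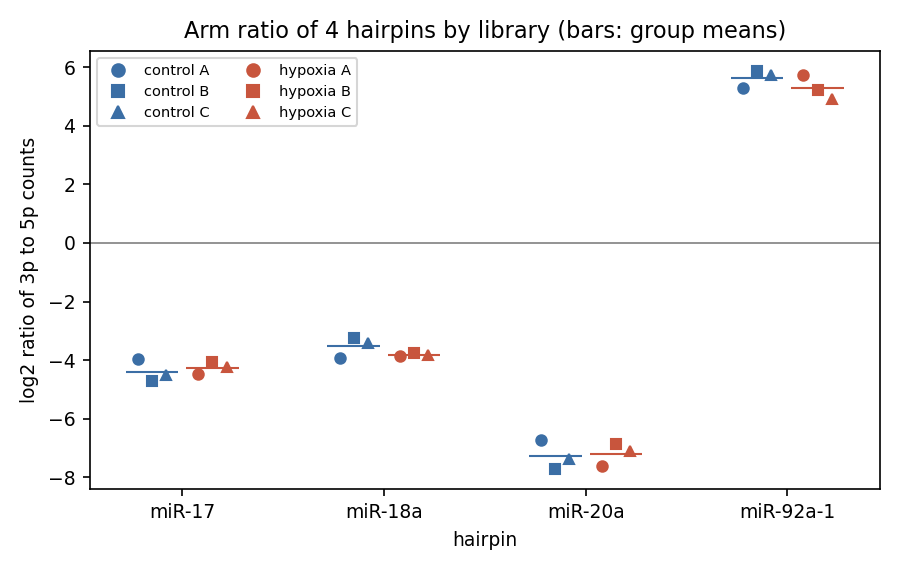
Log2 ratio of 3p to 5p counts in each library for the 4 hairpins with both arms among the members (circle A, square B, triangle C; blue control, red hypoxia; bars, group means). The 5p arm dominates by 9.41-fold to 211-fold in the first 3 hairpins and the 3p arm by 30.1-fold to 59.1-fold in miR-92a-1, in both groups.

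Whether the arms changed unequally was asked by setting each arm against the mean log2 count of the other 9. miR-92a-3p had the largest difference in size, from 4.03, 3.98 and 3.93 above the other arms in control A, B and C to 3.68, 3.86 and 3.42 in hypoxia A, B and C. Every hypoxia library lay below every control library, a difference in log2 ratio of -0.33, which was -0.21 without hypoxia C and -0.43 without hypoxia B. The two-sided exact permutation test gave p = 0.1, the smallest possible, and 1 after Benjamini-Hochberg adjustment over the 10 arms. The next were miR-18a-5p, with a difference of 0.19 (exact permutation p = 0.3), and miR-18a-3p, with -0.15 (exact permutation p = 0.3). Leaving out single libraries gave 0.10 (without control B) to 0.29 (without control A) for the former and -0.28 (without control A) to -0.072 (without control B) for the latter. The remaining 7 arms had differences from -0.03 to 0.13. Set against the other arms, the groups overlapped for every arm but miR-92a-3p. As a share of the cluster's counts, miR-92a-3p had a control mean of 35.2% ± 3.02 and a hypoxia mean of 30.5% ± 4.48 (SD over 3 libraries, p = 0.3 by the exact permutation test). By that share the groups overlapped, with hypoxia B (35.7%) above control B (33.0%) and control C (33.9%).

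**Figure D4:**
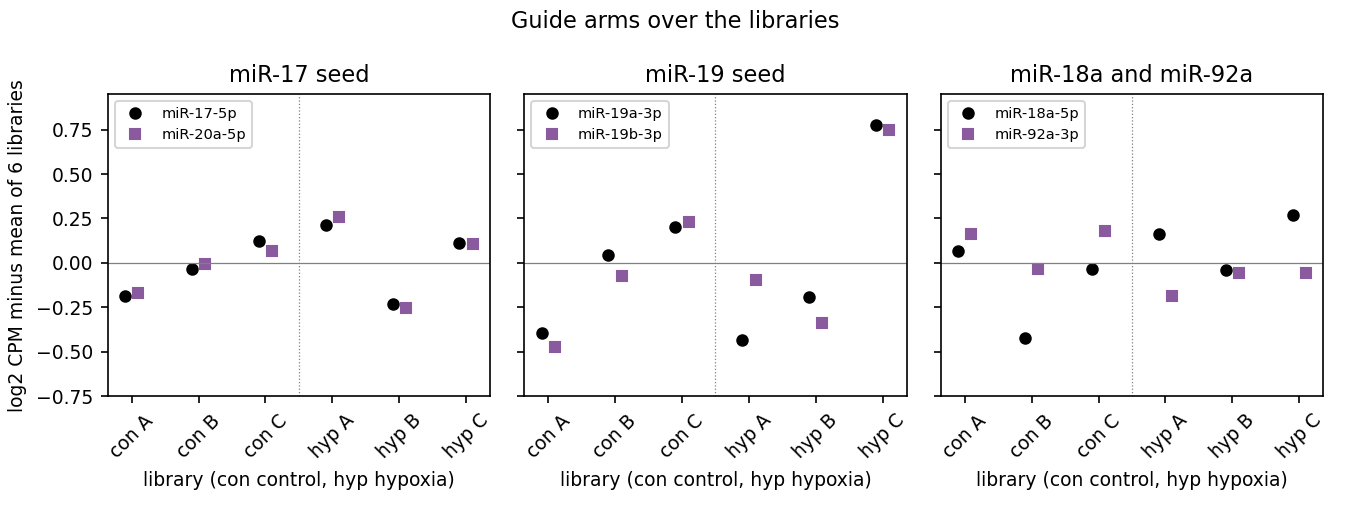
Log2 CPM of 6 guide arms minus their mean over 6 libraries, 1 point per library, controls left of the dotted line and hypoxia right of it. miR-17-5p and miR-20a-5p lie almost on each other, miR-19a-3p and miR-19b-3p share a high value in hypoxia C, and miR-92a-3p is lower in each hypoxia library than in each control library.

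Copies of the cluster elsewhere bear on 2 of its guides. miR-19b-3p and miR-92a-3p are also encoded by Mir19b-2 (chromosome X, 52741983 to 52742066, minus strand) and Mir92-2 (52741838 to 52741928), in the Mir106a to Mir363 cluster. The 5p arms of those second hairpins, miR-19b-2-5p and miR-92a-2-5p, had 0 counts in all 6 libraries. A count of 0 allows up to 0.180 to 0.243 CPM per library (3 counts), for counting error only. The corresponding chromosome 14 arms, miR-19b-1-5p and miR-92a-1-5p, had 1.15 to 2.55 CPM and 17.1 to 33.5 CPM. The other arms of the X cluster were also low: miR-106a-5p averaged 6.28 CPM, miR-20b-5p 3.74 CPM, miR-363-3p 0.182 CPM and miR-18b-5p 0.0978 CPM. miR-106a-5p differs from miR-17-5p only by U10A, and its counts were 0.699% to 1.06% of those of miR-17-5p, so reads of one miscounted as the other cannot be told apart. miR-20b-5p, which differs from miR-17-5p by U10C and C12U, had 35, 42 and 44 counts in control and 85, 61 and 65 counts in hypoxia A, B and C. Its groups did not overlap, as was found with higher values in hypoxia for 46 of all 619 tested miRNAs (7.43%). The log2 fold change of miR-20b-5p reached 0.61 with an SE of 0.27 (adjusted p = 0.72 in edgeR, and 0.21 with the letter block).

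The other paralog cluster, Mir106b to Mir25, was close to the miR-17-92 cluster in abundance, with 0.192% to 0.2495% of known miRNA counts in control and 0.213% to 0.281% in hypoxia libraries. Its miR-93-5p and miR-106b-5p have the seed of miR-17-5p, and its miR-25-3p that of miR-92a-3p. miR-93-5p had a control mean of 611 ± 49.8 CPM and a hypoxia mean of 652 ± 85.2 CPM, with a log2 fold change of 0.09. For miR-106b-5p the means were 243 ± 26.0 and 295 ± 58.8 CPM (log2 fold change 0.28), and for miR-25-3p 1241 ± 81.4 and 1222 ± 137 CPM (-0.02; SD over 3 libraries per group). Of the 16 related arms considered (both paralog clusters, miR-92b-3p, miR-32-5p and the 2 remaining cluster arms), 11 passed the filter. None was called with or without the block, and 6 of the 11 lay above 0, with a median log2 fold change of 0.09.

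Summed over all listed miRNAs with one seed, the cluster supplied most of the miR-17 seed and nearly all of the miR-18 and miR-19 seeds. miR-17-5p and miR-20a-5p made up 61.2% to 65.3% of the CPM of 7 miRNAs with the miR-17 seed, whose sum averaged 2360 ± 175 CPM without and 2539 ± 391 CPM with hypoxia. miR-18a-5p made up at least 99.7% of the miR-18 seed in every library, and no listed miRNA besides miR-19a-3p and miR-19b-3p carried the miR-19 seed. miR-92a-3p made up 43.9% to 46.5% of the miR-92 seed in control and 38.3% to 43.8% in hypoxia libraries. The sum for that seed averaged 2509 ± 158 CPM without and 2356 ± 54.3 CPM with hypoxia (SD over 3 libraries), and miR-25-3p was its most abundant carrier. None of these 4 sums differed beyond the spread between libraries (two-sided exact permutation tests on log2 sums, p from 0.3 to 0.7, smallest possible 0.1).

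**Figure D5:**
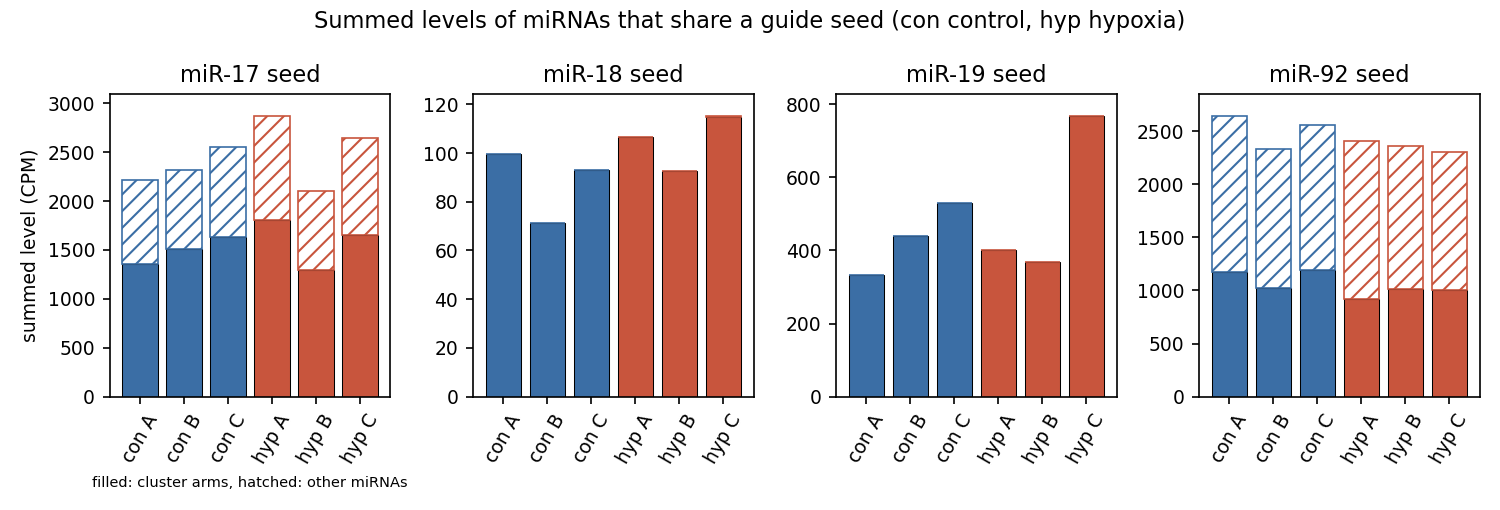
Summed CPM per library of all listed miRNAs that share a guide seed, for 4 seeds (blue control, red hypoxia), with the cluster's arms filled and other miRNAs hatched. The cluster fills 61.2% to 65.3% of the miR-17 bars and 38.3% to 46.5% of the miR-92 bars, and the miR-19 bar of hypoxia C stands above the other 5.

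The miRNAs most like the cluster over the libraries were sought by Pearson's r between their log2 CPM and the mean centred log2 CPM of the 10 arms, over 6 libraries. That mean profile was lowest in control B (-0.19) and highest in hypoxia C (0.30). Of 354 other miRNAs with at least 10 CPM, 1 reached an r of 0.9, and the median r was -0.01. The 5 most alike were miR-542-3p (r = 0.92), miR-301a-3p (0.898), miR-26a-2-3p (0.88), miR-669d-5p (0.86) and miR-25-5p (0.85). Spearman's rho, taken on ranks, was 0.89 for miR-542-3p, miR-301a-3p and miR-26a-2-3p. It was 0.77 for miR-25-5p and only 0.49 for miR-669d-5p. These values describe 6 points that share library depth and scaling.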

How the data were processed

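The authors deposited raw counts per known mature miRNA, as whole numbers, for 6 small RNA libraries (3 control, 3 hypoxia). bcl2fastq 2.0, DESeq2 and mm10 appear in the submitters' processing notes, with no role stated. How reads were aligned and counted, and how reads fitting more than one miRNA were treated, is not given in these sources. A table of predicted miRNAs was not used. All known miRNAs were fitted in R 4.3.3 with edgeR 4.0.16 (filterByExpr, TMM, quasi-likelihood test, Benjamini-Hochberg at 0.05 over 619), tested on simulated data first. SE is the absolute log2 fold change over the square root of F. Log2 CPM used a prior count of 2. DESeq2 1.42.0 and limma 3.58.1 were alternatives, as were other scalings, no filter and leaving out libraries.

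Same-letter libraries deviated together from their group means (r of 0.52, 0.43 and 0.28 for A, B and C, other pairs -0.44 to 0.12), so the letters were treated as pairs in a blocked fit. This pairing comes from column names and values, not the labels.

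Shares and ratios were compared by exact permutation of libraries. Every arm was named, with related arms from fixed lists, and the 5 most alike by r. The members and lists were chosen with earlier results of these data known. Mature and hairpin sequences are from RefSeq, and exons from GENCODE.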

Additional observations from a re-analysis of the deposited data

How the results depend on the processing

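No arm was called under any of 17 alternatives. In 4 alternatives of processing and 8 that left out libraries or pairs, no known miRNA was called, so no arm could be. The lowest edgeR adjusted p of an arm was 0.066 (miR-92a-1-5p, replicate block without pair A). At an unadjusted p under 0.05 that fit had 3 arms, beside 135 of 625 miRNAs. The replicate block fit without pair B had 2 arms, beside 101 of 627. Over all known miRNAs, calls rose from 0 of 619 to 4 of 1322 with no filter and to 1 of 1322 with DESeq2. They rose to 14 of 619 with the replicate block. DESeq2 with the replicate block (chosen after seeing the data) called 36 of the 528 miRNAs given an adjusted p. Leaving out libraries or pairs gave 0 to 23 calls, 23 only in the replicate block fit without pair B. The replicate block changed no arm's call. Log2 fold changes of miR-92a-3p (-0.32 to -0.13), miR-18a-5p (0.10 to 0.34) and miR-17-3p (0.02 to 0.35) kept their direction throughout.

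Leaving out single libraries or pairs turned the others. Ranges were -0.10 to 0.17 for miR-17-5p and -0.11 to 0.20 for miR-20a-5p (turned without control A, hypoxia A or pair A), and -0.17 to 0.058 for miR-18a-3p (without control C). They were -0.30 to 0.39 for miR-19a-3p (without hypoxia C or pair C), -0.16 to 0.44 for miR-19b-3p (without hypoxia C), -0.10 to 0.46 for miR-20a-3p (without control B or pair B) and -0.14 to 0.61 for miR-92a-1-5p (without control B, hypoxia C, pair B or pair C). The cluster share difference ranged from -0.0034 to 0.0499 percentage points, and the arm ratio difference from -0.018 to 0.34 for miR-17 and from -0.15 to 0.36 for miR-20a, -0.51 to -0.16 for miR-18a and -0.56 to -0.14 for miR-92a-1. Against the other arms, ranges were -0.20 to 0.060 (miR-17-5p), -0.26 to 0.21 (miR-19a-3p), -0.21 to 0.077 (miR-20a-5p), -0.093 to 0.29 (miR-20a-3p), -0.088 to 0.30 (miR-19b-3p) and -0.10 to 0.28 (miR-92a-1-5p), and without a turn -0.43 to -0.21 (miR-92a-3p), 0.10 to 0.29 (miR-18a-5p), -0.28 to -0.072 (miR-18a-3p) and 0.020 to 0.26 (miR-17-3p).

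Scaling by library size only gave 0.017 for miR-18a-3p, and moved the median of all miRNAs to 0.08. Without miR-19b-3p and miR-92a-3p, the arms with a second locus, miR-19a-3p against the other arms was -0.020, and the mean log2 span of levels was 7.27 in place of 7.55. The cause of these changes was not tested. Counts of 54 to 137 per library limit miR-18a-3p and miR-20a-3p.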
